A study of Mus musculus with 15 samples.

Results

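Mouse bone marrow derived macrophages given heme-albumin at 400 µM were compared directly with macrophages given IFN-γ. The comparison takes the 3 libraries labelled with the higher heme-albumin dose and the 3 labelled with IFN-γ, 6 of the 15 libraries of the series, chosen by their labels and not by a measured value. It covers all 25700 genes of the count table, of which 11883 carried enough counts to be tested. All cultures were grown from femur and tibia marrow of mice 8 to 10 weeks old, whose strain is not stated in the labels, with 7 days of M-CSF (10 ng/ml), the growth factor that turns marrow cells into macrophages. One group then received hemin bound to human serum albumin, which the labels call erythrophagocyte-like after macrophages that engulf red blood cells, and the other received IFN-γ at 10 ng/ml, the classical M1 stimulus. The dose tag of the labels reads 400, 401 and 402 µM over the 3 heme-albumin libraries, while their titles give 400. The 3 untreated cultures are given as background, and the libraries of the lower heme-albumin dose and of IL-4 enter only the shared estimate of the spread. The labels mention albumin only as the carrier of heme, so an effect of heme and one of its carrier cannot be told apart. The time under treatment is not given. Nothing states whether the libraries of a group stem from different mice, and the p-values below therefore reflect only how far these libraries differ, which may be technical.

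Heme taken up by a macrophage is opened by heme oxygenase, which frees iron, carbon monoxide and biliverdin. The iron is stored in ferritin or exported through ferroportin. Heme also releases target genes from the repressor BACH1 and activates NRF2, the transcription factor of the antioxidant programme. IFN-γ binds a receptor coupled to the kinases JAK1 and JAK2. The signal acts through gamma-activated sites in DNA and switches on IRF1 and CIITA, which in turn drive antigen presentation and the GTPases of cell-autonomous defence. In bulk samples fewer cells of a type and less RNA per cell cannot be told apart.

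The 3 genes that mark the treatments matched the labels in all 6 libraries. Heme oxygenase 1, Hmox1 (chr8:75093621-75100589, GRCm38), stood at 22470, 23510 and 21720 CPM with heme-albumin, 1089, 729 and 1316 with IFN-γ and 1047, 674 and 1153 untreated. Every heme-albumin library lay above every other one, while the IFN-γ libraries overlapped the untreated ones. The log2 difference (heme-albumin minus IFN-γ, as for all log2 differences below unless another pair is named) was 4.42 ± 0.29 (adjusted p = 5.12e-08), where ± is the standard error and p comes from edgeR's quasi-likelihood test with Benjamini-Hochberg adjustment over all genes tested. Ciita (chr16:10480059-10528418), the master regulator of MHC class II transcription, was at 0.110, 0.110 and 0.455 CPM with heme-albumin, 220.5, 237 and 203 with IFN-γ and 0.646, 0.984 and 0.949 untreated, a log2 difference of -9.71 ± 0.40 (adjusted p = 8.53e-10) and of -10.86 without heme-albumin replicate 3. Irf1 (chr11:53770014-53778374), a transcription factor induced early by interferons, was at 28.2, 23.1 and 22.6 CPM with heme-albumin, 1138, 1415 and 1369 with IFN-γ and 55.3, 61.8 and 48.8 untreated, a log2 difference of -5.73 ± 0.16 (adjusted p = 3.25e-11). For both genes the heme-albumin libraries were the lowest of the 9. CPM, the usual depth-scaled read count, divides a gene's counts by its library's total.

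Both responses act through short DNA motifs, and promoters of genes at the 2 ends of the comparison were searched for them. Each end was chosen by the direction of its difference, so a shared direction of its members is given by the choice. RefSeq promoters (GRCm38.p6, 250 bases before to 50 after the start) were searched on both strands for TGACNNNGC, the core of the antioxidant response element, TTCNNNGAA, the gamma-activated site, which reads the same on both strands, and GAAANNGAA, the core of the interferon-stimulated element, which can share its GAA with a gamma-activated site. A promoter was found for 9276 of the genes tested. The interferon-stimulated core was in 9.01% of those promoters, in 28.4% of the 338 promoters of genes called at least 4-fold higher with IFN-γ, and in 8.15% of the 356 of genes called at least 4-fold higher with heme-albumin. The gamma-activated site was in 8.29% of all, 12.7% at the IFN-γ end and 5.90% at the heme-albumin end. The antioxidant core was in 17.2% of all, 16% at the IFN-γ end and 20.2% at the heme-albumin end. A match describes letters and not a bound site. Windows around matches are printed 5′ to 3′ on the gene's strand, with bases of any of the 3 motifs, on either strand, in capitals. Those of 3 genes higher with IFN-γ hold a gamma-activated site:
Irf1 (chr11:53769914-53769942, + strand): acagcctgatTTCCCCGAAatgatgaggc
Fcgr1 (chr3:96294060-96294088, - strand): aaggatgtatTTCCCAGAAaagggaacag
Psmb8 (chr17:34198088-34198116, + strand): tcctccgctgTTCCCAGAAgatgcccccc
Windows of 4 others hold the interferon-stimulated core, and the 2 overlapping windows of Igtp hold one motif each:
Gbp2 (chr3:142620595-142620623, + strand): ctcttttagtTTCACTTTCactgtcttaa
B2m (chr2:122147538-122147566, + strand): ataagaacatGAAACTGAAaatgggaaag
Cxcl9 (chr5:92328236-92328264, - strand): ccgtttatgtGAAATGGAAgtagaacatg
Socs1 (chr16:10785601-10785629, - strand): agacttgccgGAAAGAGAAACCGAAagcg
Igtp (chr11:58199501-58199529, + strand): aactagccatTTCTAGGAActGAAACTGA
Igtp (chr11:58199512-58199540, + strand): TCTAGGAActGAAACTGAAagctgttcgg
In Gclm and Me1, both higher with heme-albumin, the antioxidant core was found:
Gclm (chr3:122245413-122245441, + strand): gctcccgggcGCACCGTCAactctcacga
Me1 (chr9:86695902-86695930, - strand): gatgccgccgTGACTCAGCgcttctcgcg

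Total counts ran from 9069999 to 13182889 with heme-albumin, from 16398891 to 22494832 with IFN-γ and from 8427352 to 15252357 in controls. The top 10 genes by count held 16% to 20.5% of a library with heme-albumin and 8.3% to 12.3% with IFN-γ. In each group 1 library stood apart from the others. By chi-square divided by its degrees of freedom over genes, heme-albumin replicate 2 was 65.1 and 51.3 from replicates 1 and 3, which were 11.2 from each other. IFN-γ replicate 3 was 141 and 137 from the others, which were 46.8 apart, while untreated pairs lay between 7.4 and 14.2.

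The 2 treatments left the macrophages with widely different transcriptomes. With heme-albumin 2448 genes were called higher (20.6% of those tested) and with IFN-γ 2649 (22.3%), together 42.9%. At least 2-fold differences were called for 1050 and 1041 genes, at least 4-fold for 492 and 476, and at least 16-fold for 160 and 185. The 3 libraries of one group lay wholly above or below those of the other in 42.0% of genes, and 4404 of the called genes were among them. Within the 3 dates carried by the column names, 1 per replicate number, 2366 of the 2448 and 2461 of the 2649 had the same sign in all 3. Upper-quartile scaling moved the median of all genes from -0.01 to 0.12 and the share of calls that were higher with heme-albumin from 48.0% to 61.3%, so small differences depend on the scaling. With only the 6 libraries in the fit the counts fell to 1268 and 1473, and with the date as a block in that fit to 959 and 1079.

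**Figure D1:**
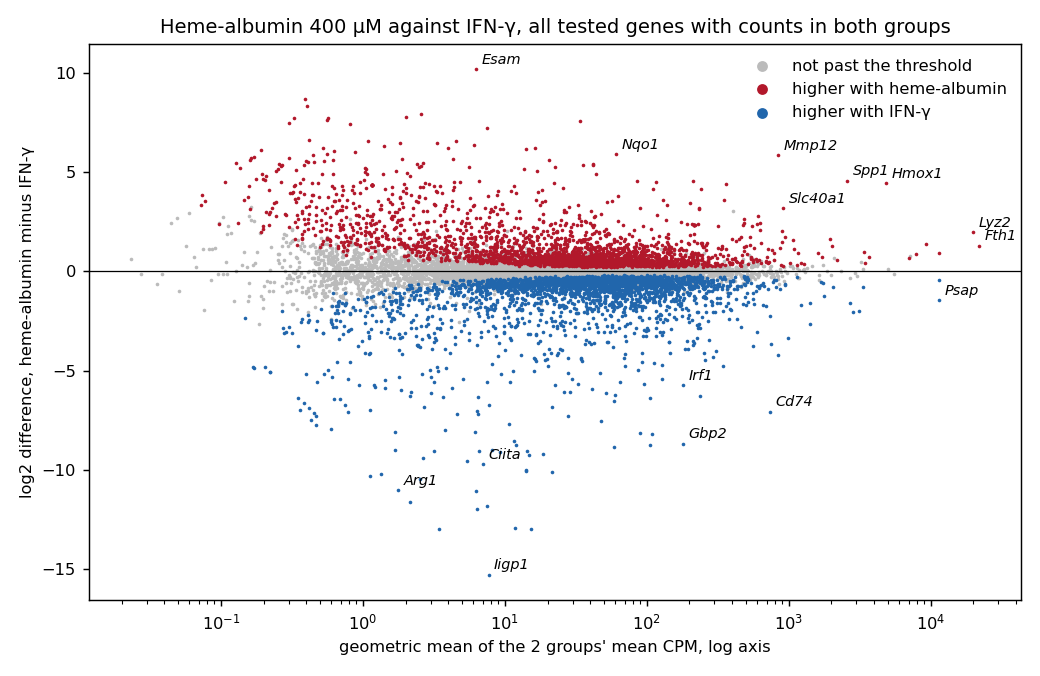
Log2 difference (heme-albumin 400 µM minus IFN-γ) against the geometric mean of the groups' mean CPM, on a log axis, for the 11814 tested genes with counts in both groups; a point is a gene, coloured red where called higher with heme-albumin and blue where called higher with IFN-γ. Hmox1, Fth1 and Lyz2 lie among the abundant genes above 0, and Iigp1, Ciita and Gbp2 far below it.

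Genes of heme breakdown and heme transport were higher with heme-albumin or did not pass the test. Of 14 tested members 7 were called higher with heme-albumin and 0 with IFN-γ, with a median log2 difference of 0.45 against -0.01 over all genes. Besides Hmox1, the porphyrin transporter Abcb6 was at 98.7, 74.8 and 92.1 CPM with heme-albumin and 18.6, 15.3 and 13.3 with IFN-γ, a log2 difference of 2.50 ± 0.11 (adjusted p = 1.35e-09). Slc48a1, which moves heme out of the phagolysosome, was at 1210, 1350 and 1321 against 492, 469.6 and 767 CPM (1.15 ± 0.21, adjusted p = 6.98e-04), and Fech, the last enzyme of heme synthesis, differed by 0.91 ± 0.11 (adjusted p = 1.83e-05). In all 3 genes the heme-albumin libraries were above every IFN-γ library. The biliverdin reductases Blvra and Blvrb (-0.08 and -0.40) and the constitutive heme oxygenase Hmox2 (-0.06) were not called.

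Iron genes differed in both directions, as genes in general did. Of 19 tested members, 6 were called higher with heme-albumin, and 4 with IFN-γ, beside 20.6% and 22.3% of all genes tested. The higher count was 3 when only the 6 libraries were fitted. The median was 0.01. Slc40a1, which encodes the iron exporter ferroportin, was at 2610, 2478 and 3259 CPM with heme-albumin, 386, 164 and 361 with IFN-γ and 269, 125 and 322 untreated, a log2 difference of 3.19 ± 0.42 (adjusted p = 3.77e-05). The heme-albumin libraries were all above the others, and those of IFN-γ overlapped the untreated ones. The ferritin subunits Fth1 (26810, 46490 and 29950 against 11190, 11110 and 19610 CPM; 1.29 ± 0.29, adjusted p = 0.00278) and Ftl1 (0.95 ± 0.23, adjusted p = 0.00443) were also higher with heme-albumin, although their calls were lost when only the 6 libraries were fitted (adjusted p = 0.0601 and 0.0661). Both have near-identical pseudogene copies, so their counts are uncertain. The iron and zinc importer Slc39a14 differed by 1.42 ± 0.14 (adjusted p = 3.63e-06) and the ferrireductase Steap3 by 0.98 ± 0.13 (adjusted p = 4.28e-05). Genes of uptake were thus called in both directions. The transferrin receptor Tfrc, the main port of iron entry, was at 20.6, 21.7 and 20.1 CPM with heme-albumin, 104, 59.4 and 61.4 with IFN-γ and 288, 174 and 266 untreated, so that it was highest untreated, lower with IFN-γ and lowest with heme-albumin (-1.83 ± 0.26, adjusted p = 7.60e-05). The mitochondrial iron importer Slc25a37 was higher with IFN-γ (70.6, 83.1 and 84.7 against 187, 254 and 226 CPM; -1.48 ± 0.16, adjusted p = 8.46e-06). Cp, the ferroxidase ceruloplasmin, had 3 counts in all with heme-albumin and was 120-fold (counting interval 41 to 585) higher with IFN-γ.

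Nearly every target gene of NRF2 was higher with heme-albumin. Of 26 tested members 23 were called higher with heme-albumin and 1 with IFN-γ, with a median of 1.86. Against untreated cultures 26 of 26 rose with heme-albumin, and 7 rose and 2 fell with IFN-γ. Over all genes tested, 14.7% rose and 10.8% fell with heme-albumin and 24.1% rose and 19.5% fell with IFN-γ against untreated cultures. These comparisons share the untreated libraries with each other and the treated ones with the direct comparison, and their values are only set side by side. The quinone reductase Nqo1 was at 316, 716 and 371 CPM with heme-albumin, 10.1, 5.69 and 8.29 with IFN-γ and 16.9, 16.2 and 17.3 untreated, with no overlap between the groups (5.90 ± 0.42, adjusted p = 1.30e-07). Gclm, the regulatory subunit of the enzyme that limits glutathione synthesis, was at 1305, 2013 and 1555 CPM against 177, 117 and 394 (2.80 ± 0.38, adjusted p = 5.92e-05; 3.55 without IFN-γ replicate 3). Malic enzyme Me1, a source of NADPH, was at 103, 104 and 106 against 12.3, 6.98 and 12.0 (3.33 ± 0.19, adjusted p = 1.42e-08), and the drug and glutathione-conjugate exporter Abcc1 at 806, 959.9 and 762 against 292, 202 and 263 (1.75 ± 0.17, adjusted p = 3.12e-06). The glutathione S-transferase Gsta3, chosen after its values were seen, differed by 5.36 ± 0.74 (adjusted p = 5.92e-05), and by 7.30 without IFN-γ replicate 3. The peroxiredoxin Prdx1 rose with both treatments, standing at 9381, 22880 and 12790 CPM with heme-albumin, 5125, 3346 and 8835 with IFN-γ and 1988, 1925 and 2007 untreated. Its direct difference of 1.37 ± 0.39 (adjusted p = 0.0125) rested on heme-albumin replicate 2, without which it was 0.89 (adjusted p = 0.0729). The same held for the cystine transporter Slc7a11, at 156, 492 and 164 against 16.7, 3.02 and 68.2 CPM (3.17 ± 0.90, adjusted p = 0.0118; without that library 2.35, adjusted p = 0.0525, and 4.92 without IFN-γ replicate 3). Thioredoxin, Txn1, was the member called higher with IFN-γ (-0.38 ± 0.12, adjusted p = 0.025), a call lost without either library that stood apart (adjusted p = 0.0673 and 0.105) and with upper-quartile scaling (0.102). NRF2 itself, Nfe2l2, was slightly lower with heme-albumin than with IFN-γ (-0.68 ± 0.19, adjusted p = 0.0112), a call lost when only the 6 libraries were fitted (adjusted p = 0.116). The partner Mafk was at 22.7, 24.0 and 21.5 against 41.8, 53.1 and 52.9 CPM (-1.11 ± 0.15, adjusted p = 5.36e-05), and the repressor Keap1 differed by -0.73 ± 0.13 (adjusted p = 3.85e-04). The call of Keap1 was lost with the date as a block in the fit of the 6 libraries (adjusted p = 0.0538).

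**Figure D2:**
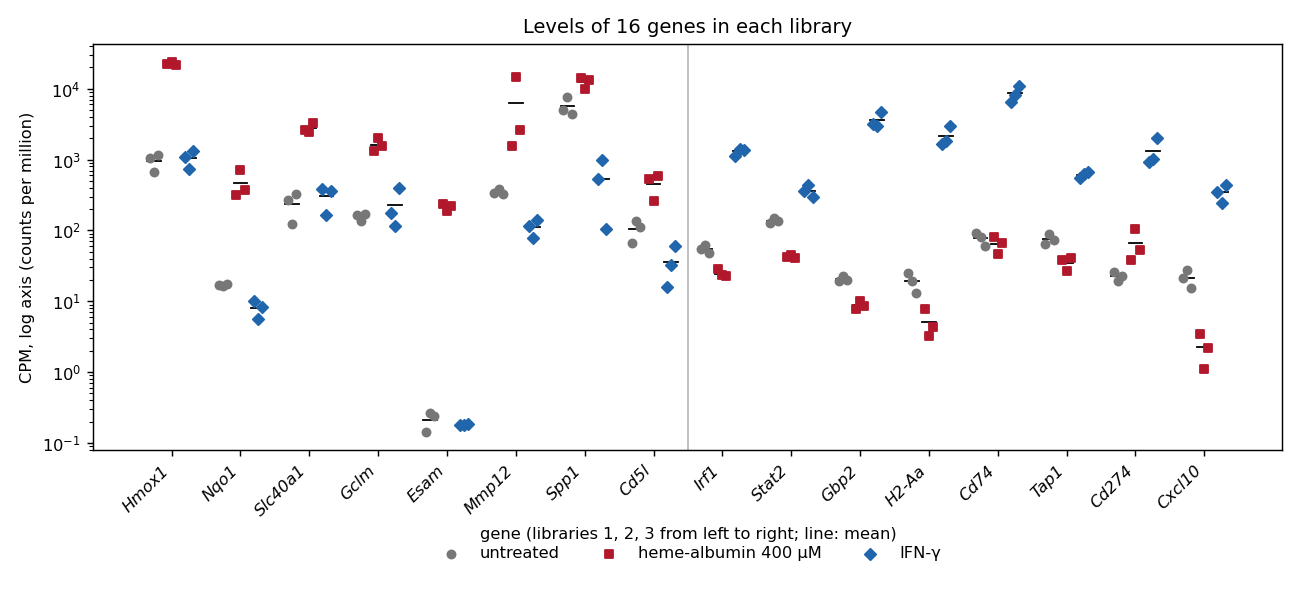
CPM of 16 genes on a log axis in each library of untreated cultures (grey circles), heme-albumin 400 µM (red squares) and IFN-γ (blue diamonds), with the group mean as a line. The heme-albumin libraries are the highest for the 8 genes on the left, from Hmox1 to Cd5l, and the IFN-γ libraries for the 8 on the right, from Irf1 to Cxcl10; levels are to be compared within a gene.

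In the list of matrix metalloproteinases and plasminogen activation more genes were called higher with heme-albumin than with IFN-γ. Other proteases and inhibitors, such as Ctsc, Ctss and Serpina3g below, were higher with IFN-γ. Of 15 tested members 9 were called higher with heme-albumin and 2 with IFN-γ (median 1.67). Macrophage elastase, Mmp12, was at 1559, 14740 and 2654 CPM with heme-albumin, 116, 79.4 and 139.7 with IFN-γ and 336, 383 and 322 untreated, with replicate 2 far above the other heme-albumin libraries and all 3 above IFN-γ (5.86 ± 1.05, adjusted p = 5.41e-04; 4.21 without that replicate). Neutrophil collagenase, Mmp8, was at 803, 1261 and 975 CPM with heme-albumin, 69.2, 29.0 and 34.3 with IFN-γ and 113, 122 and 102 untreated (4.55 ± 0.35, adjusted p = 2.40e-07). Osteopontin, Spp1, an adhesive cytokine, was at 14120, 9792 and 13330 CPM with heme-albumin, 530, 981 and 103 with IFN-γ and 4997, 7581 and 4426 untreated (4.58 ± 0.58, adjusted p = 2.92e-05; 5.33 without IFN-γ replicate 2). It fell with IFN-γ relative to untreated cultures (-3.26 ± 0.55, adjusted p = 3.76e-04) while its rise with heme-albumin did not pass the test (1.32 ± 0.51, adjusted p = 0.0736). The inhibitor Timp2 was lower than untreated in both groups, at 153, 112 and 163 CPM with heme-albumin, 30.1, 55.9 and 32.6 with IFN-γ and 273, 297 and 298 untreated, and higher with heme-albumin than with IFN-γ (1.86 ± 0.19, adjusted p = 4.69e-06). The membrane protease Adam8 differed by 1.27 ± 0.16 (adjusted p = 2.16e-05). Membrane-bound Mmp14, chosen after its values were seen, was higher with IFN-γ (1.54, 3.86 and 3.26 against 12.9, 3.42 and 252 CPM), a call that rested on IFN-γ replicate 3 (-5.03 ± 1.30, adjusted p = 0.00677; without it -1.38, adjusted p = 0.0975).

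In the list of prostaglandin and leukotriene enzymes 8 of 17 tested members were called higher with heme-albumin and 4 with IFN-γ (median 0.53). Among all genes tested the shares were 20.6% with heme-albumin and 22.3% with IFN-γ. The 5-lipoxygenase gene Alox5 was at 134, 63.6 and 118 CPM with heme-albumin, 4.19, 8.54 and 1.40 with IFN-γ and 40.6, 84.3 and 54.6 untreated, with no overlap between the treated groups (4.47 ± 0.52, adjusted p = 1.32e-05; 5.22 without IFN-γ replicate 2). It fell with IFN-γ relative to untreated (-3.47 ± 0.50, adjusted p = 1.16e-04), and the difference between heme-albumin and untreated was 0.99 ± 0.44, adjusted p = 0.117. Its partner Alox5ap differed by 1.31 ± 0.14 (adjusted p = 8.31e-06) and leukotriene A4 hydrolase, Lta4h, by 0.66 ± 0.09 (adjusted p = 5.20e-05). Ptgr1, which inactivates leukotriene B4 and prostaglandins, was at 559, 884 and 521 CPM against 60.7, 49.3 and 74.5 (3.42 ± 0.24, adjusted p = 1.11e-07). Cyclooxygenase 2, Ptgs2, was at 30.9, 86.3 and 34.5 CPM with heme-albumin, 380.4, 222 and 199.5 with IFN-γ and 1.44, 0.918 and 0.831 untreated. Both treatments raised it, and every IFN-γ library was above every heme-albumin one (-2.36 ± 0.45, adjusted p = 8.97e-04; -3.04 without heme-albumin replicate 2, its highest).

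Some of the largest differences on the heme-albumin side were in genes that are near 0 in both other groups. The junctional adhesion molecule Esam was at 239, 189.9 and 222 CPM with heme-albumin, 0.180, 0.178 and 0.183 with IFN-γ and 0.143, 0.262 and 0.237 untreated (10.18 ± 0.20, adjusted p = 1.17e-12). The ubiquitin ligase Rnf183 was at 44.4, 39.6 and 40.3 CPM with heme-albumin, 0.299, 0.178 and 0 with IFN-γ and 0.718, 0.524 and 0.475 untreated (7.95 ± 0.39, adjusted p = 3.70e-09), and the transporter-like gene Slc22a23 at 25.7, 35.7 and 26.3 CPM with heme-albumin, 0.0599, 0.0445 and 0.305 with IFN-γ and 0.359, 0 and 0.831 untreated (7.77 ± 0.62, adjusted p = 3.23e-07; 9.02 without IFN-γ replicate 3). In each of the 3 genes every heme-albumin library was above 20 CPM and every other one below 1. The immediate early gene Fosl1, an AP-1 subunit, was at 35.6, 26.4 and 30.1 CPM against 0.539, 0.133 and 0.427 (6.44 ± 0.40, adjusted p = 3.26e-08). Its list did not share this direction as a whole. Of 17 tested immediate early genes 3 were called higher with heme-albumin and 5 with IFN-γ (median -0.45). Among all genes tested the shares were 20.6% and 22.3%. No count in any IFN-γ library was found for 10 genes with a mean of at least 1 CPM with heme-albumin. Mt3, a metallothionein that binds zinc and copper, led them with 5.93, 23.4 and 5.54 CPM, at least 200-fold higher by a floor of 3 counts over the group. Ceacam10, at 2.52, 16 and 5.31 CPM, was at least 141-fold higher, the signalling adaptor Rassf6 at least 83.9-fold, and the kinase gene Hunk at least 63.2-fold. The acyl-CoA synthetase Acsbg1 had 1 count with IFN-γ and was 571-fold (counting interval 102 to 22600) higher with heme-albumin. Heme-albumin replicate 2 was the highest of its group for Mt3 and Ceacam10 and held most of the level of both.

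Of 14 tested genes of red pulp and other tissue macrophages 3 were called higher with heme-albumin, 6 without IFN-γ replicate 3, and 5 with IFN-γ. Over all genes tested the shares were 20.6% higher with heme-albumin and 22.3% with IFN-γ. Vcam1, an adhesion molecule of red pulp macrophages, was at 0.878, 0.772 and 1.29 CPM against 14.9, 7.91 and 28.2 (-4.10 ± 0.61, adjusted p = 1.20e-04). Timd4, a receptor for apoptotic cells, had no count with heme-albumin and was at least 20.7-fold higher with IFN-γ. Treml4, a receptor found on splenic macrophages, was at 357, 139.8 and 337 CPM with heme-albumin, 6.05, 1.51 and 11.7 with IFN-γ and 4.52, 1.97 and 4.63 untreated (5.42 ± 0.63, adjusted p = 1.43e-05; 6.32 without IFN-γ replicate 3). Cd5l, an apoptosis inhibitor secreted by macrophages, was at 536, 261 and 580.4 CPM against 15.9, 32.4 and 60.9 (3.61 ± 0.47, adjusted p = 3.48e-05; 4.30 without that library). Spic, the factor of iron-recycling red pulp macrophages that heme is known to induce, was at 22.1, 16.5 and 25.3 CPM with heme-albumin, 1.62, 0.311 and 13.1 with IFN-γ and 1.29, 0.393 and 0.712 untreated. It rose with heme-albumin against untreated cultures, while IFN-γ replicate 2 lay below every untreated library and IFN-γ replicate 3 far above them. The direct difference of 2.05 ± 0.79 (adjusted p = 0.0504) missed the threshold. Without IFN-γ replicate 3, the highest of its group, it was called (4.63, adjusted p = 4.19e-06), and with the date as a block it was called too (2.56, adjusted p = 0.0118). The scavenger receptor Marco was at 2042, 178 and 1408 CPM against 50.4, 1.73 and 352, and the groups overlapped (3.04 ± 1.23, adjusted p = 0.0602). It was called without IFN-γ replicate 3 (5.61, adjusted p = 0.00298) and with the date as a block (3.50, adjusted p = 0.0187). Plin2, which coats lipid droplets, was at 1667, 2261 and 1672 CPM with heme-albumin, 566, 587 and 708 with IFN-γ and 733, 714 and 694 untreated (1.59 ± 0.20, adjusted p = 2.92e-05), and Angptl4, an inhibitor of lipoprotein lipase, was at 7.36, 10.5 and 7.28 against 0.419, 0.933 and 0.366 (3.82 ± 0.33, adjusted p = 8.64e-07). The fatty acid receptor Cd36 rose with both treatments, at 3227, 6979 and 3989 CPM with heme-albumin, 2724, 2285 and 2270 with IFN-γ and 1212, 1079 and 1132 untreated. Its direct difference of 0.99 ± 0.28 (adjusted p = 0.0104) was not called without heme-albumin replicate 2 (0.55, adjusted p = 0.0558).

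Most genes of cholesterol synthesis fell with both treatments relative to untreated cultures, and many were lower with IFN-γ than with heme-albumin. Of 22 tested enzymes and regulators 12 were called higher with heme-albumin than with IFN-γ and 0 lower (median 0.79), while 17 fell with heme-albumin and 22 with IFN-γ relative to untreated. The higher count was 6 without heme-albumin replicate 1, 7 without IFN-γ replicate 2 and 7 when only the 6 libraries were fitted. Squalene epoxidase, Sqle, was at 143, 82.7 and 109.8 CPM with heme-albumin, 28.9, 14.9 and 6.16 with IFN-γ and 212, 176 and 195 untreated (2.78 ± 0.39, adjusted p = 7.12e-05). IFN-γ replicate 3 was the lowest library for this gene, as it was for Fdft1, squalene synthase, at 54.2, 28.8 and 42.6 against 17.2, 10.6 and 5.85 CPM (1.92 ± 0.32, adjusted p = 3.11e-04). The cholesterol exporter Abca1, a target of LXR, was at 22.9, 28.2 and 29.0 CPM with heme-albumin, 164, 114 and 162 with IFN-γ and 147, 89.4 and 113 untreated and was thus lower with heme-albumin than in either other group (-2.45 ± 0.29, adjusted p = 1.87e-05). Stearoyl-CoA desaturase, Scd1, fell in both groups, from 231, 276 and 160 CPM untreated to 1.43, 2.54 and 1.21 with heme-albumin and 10.9, 6.54 and 0.244 with IFN-γ. Its direct difference (-1.75 ± 0.76, adjusted p = 0.0788) was not called, but was when IFN-γ replicate 3 was left out (-2.29, adjusted p = 7.39e-04).

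Constitutive proteasome subunits were mostly higher with heme-albumin and those of the immunoproteasome with IFN-γ. Of 31 constitutive subunits 18 were called higher with heme-albumin and 1, Psmb2, with IFN-γ, with a median of 0.28. Against untreated cultures 21 rose with heme-albumin and none fell, and 9 rose and 2 fell with IFN-γ. The call of Psmb2 (-0.38 ± 0.12, adjusted p = 0.0243) was lost with upper-quartile scaling (adjusted p = 0.10). It was also lost when only the 6 libraries were fitted (adjusted p = 0.150), and it held in 9 of 15 alternative settings. Psmd11, a subunit of the regulatory lid, was at 168, 204 and 169.5 CPM against 110.5, 91.0 and 78.0 (0.97 ± 0.11, adjusted p = 1.11e-05), Psmd1 at 278, 279.7 and 283 against 195, 148 and 134 (0.84 ± 0.11, adjusted p = 3.07e-05) and Psmd14, the lid's deubiquitinase, at 151, 157 and 150.4 against 109.7, 88.9 and 63.0 (0.83 ± 0.12, adjusted p = 1.08e-04). The groups did not overlap in these 3. The differences were small, and the count of 18 fell to 5 when only the 6 libraries were fitted, and to 11 without IFN-γ replicate 2 or without heme-albumin replicate 3. Of 7 immunoproteasome subunits and activators, by contrast, 6 were higher with IFN-γ and 0 with heme-albumin (median -2.23). The catalytic subunit Psmb9 was at 26.2, 15 and 26.5 CPM with heme-albumin, 188, 241 and 229 with IFN-γ and 48.0, 55.6 and 50 untreated (-3.28 ± 0.18, adjusted p = 9.46e-09) and Psmb8, whose promoter window is printed above, at 93.3, 70.9 and 80.3 CPM with heme-albumin, 458, 510 and 486 with IFN-γ and 111, 148 and 116 untreated (-2.57 ± 0.13, adjusted p = 5.52e-09). For both, the heme-albumin libraries were below every untreated library and the IFN-γ ones above. The activator subunits Psme1 and Psme2 differed by -2.23 ± 0.11 (adjusted p = 3.99e-09) and -2.05 ± 0.09 (adjusted p = 1.34e-09). Among heat shock chaperones 5 of 13 were higher with heme-albumin and 0 with IFN-γ, led by Hsph1, an HSP70 exchange factor, at 90.7, 129.8 and 92.6 against 35.3, 34.0 and 39.6 CPM (1.53 ± 0.17, adjusted p = 1.15e-05). With only the 6 libraries in the fit 2 chaperones were called.

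Genes of the interferon pathway itself were higher with IFN-γ. In the list of interferon receptors, JAKs and STATs 10 of 14 tested members were called higher with IFN-γ and 0 with heme-albumin (median -0.51; 6 when only the 6 libraries were fitted). Stat2, a transcription factor of type I signalling, was at 42.3, 44.4 and 40.4 CPM with heme-albumin, 357, 432 and 298 with IFN-γ and 126, 152 and 136 untreated (-3.08 ± 0.14, adjusted p = 1.65e-09). The heme-albumin libraries were the lowest and the 3 groups did not overlap. Stat3 (-1.73 ± 0.10, adjusted p = 2.04e-08) and the kinase Tyk2 (-1.43 ± 0.14, adjusted p = 3.45e-06) followed at smaller differences. Of 8 IRF genes 6 were higher with IFN-γ, among them Irf7, the amplifier of type I interferon, at 12.0, 16 and 12.7 against 349, 635 and 1035 CPM (-5.66 ± 0.44, adjusted p = 2.78e-07), and Irf8, a macrophage lineage factor, at 112, 103 and 123 against 532, 752 and 642 (-2.51 ± 0.14, adjusted p = 1.03e-08). Of the feedback inhibitors 8 of 12 were higher with IFN-γ and 2 with heme-albumin. Socs1, which blocks JAK kinases, was at 0.439, 1.21 and 0.531 CPM with heme-albumin, 30.6, 74.5 and 66.9 with IFN-γ and 0.789, 0.787 and 0.831 untreated (-6.33 ± 0.48, adjusted p = 2.43e-07), and Usp18, which shuts off the type I receptor, at 4.72, 9.04 and 3.19 CPM with heme-albumin, 95.8, 130 and 70.8 with IFN-γ and 22.8, 39.5 and 24.8 untreated (-4.13 ± 0.35, adjusted p = 7.83e-07).

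The lowest medians of the 52 lists were those of the GTPases of cell-autonomous immunity, which attack the vacuoles of intracellular microbes. All 11 tested guanylate-binding proteins and 7 of 8 immunity-related GTPases were called higher with IFN-γ, with medians of -10.10 (-9.72 with genes at 0 set to their bound) and -5.07. Gbp2 was at 7.90, 10.1 and 8.57 CPM with heme-albumin, 3192, 2986 and 4624 with IFN-γ and 19.4, 23 and 20.1 untreated (-8.67 ± 0.32, adjusted p = 3.13e-10) and Gbp5, which acts in inflammasome activation, at 0.878, 0.551 and 0.531 CPM with heme-albumin, 612, 573 and 946 with IFN-γ and 3.37, 4.92 and 3.56 untreated (-10.12 ± 0.38, adjusted p = 3.13e-10). Igtp was at 18.2, 22.8 and 17.6 against 704, 826 and 988 CPM (-5.43 ± 0.23, adjusted p = 1.16e-09), and Irgm1, which guards host membranes, at 44.2, 69.9 and 49.8 against 1211, 1196 and 1283 (-4.48 ± 0.21, adjusted p = 2.38e-09). No count was found in any heme-albumin library for Gbp2b, at 921, 942 and 324 CPM with IFN-γ (at least 7870-fold higher), for Gbp11 (at least 844-fold) or for Tgtp1 (at least 4040-fold). Iigp1 had 1 count with heme-albumin against 1747, 1455 and 1625 CPM and was 50000-fold (counting interval 8960 to 1970000) higher with IFN-γ. These genes stand in clusters of near-identical copies, so the share of each copy is uncertain, although all that were called had the same direction. Irgc1 was the member not called (1.13).

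Genes of the type I interferon response were raised by IFN-γ and lowered by heme-albumin relative to untreated cultures. Of 27 tested members, 26 were higher with IFN-γ in the direct comparison and 0 with heme-albumin (median -3.90), 25 rose with IFN-γ and 24 fell with heme-albumin. Zbp1, a sensor of nucleic acids in the Z form, was at 6.04, 6.50 and 5.92 CPM with heme-albumin, 389, 469.7 and 449 with IFN-γ and 20.8, 42.9 and 22.8 untreated (-6.14 ± 0.29, adjusted p = 2.38e-09). Ifi44 was at 0.220, 0.551 and 0.303 CPM with heme-albumin, 183, 195 and 182 with IFN-γ and 4.95, 7.01 and 3.20 untreated (-9.01 ± 0.38, adjusted p = 1.03e-09), and Dhx58, a regulator of RNA sensing, at 22.7, 17.3 and 22.7 CPM with heme-albumin, 169, 194 and 151 with IFN-γ and 63.6, 72.8 and 68.1 untreated (-3.02 ± 0.11, adjusted p = 3.13e-10). In each of the 3 genes the untreated libraries lay between the treated groups with no overlap. Xaf1 differed by -3.27 ± 0.17 (adjusted p = 6.45e-09). All 12 tested genes of the Ifi200 cluster of DNA sensors were higher with IFN-γ (median -3.99), such as Ifi211 at 7.25, 8.27 and 6.90 against 150.2, 159.5 and 165 CPM (-4.40 ± 0.21, adjusted p = 3.70e-09), and 8 of them fell with heme-albumin against untreated. Reads can be shared among the near-identical genes of this cluster.

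**Figure D3:**
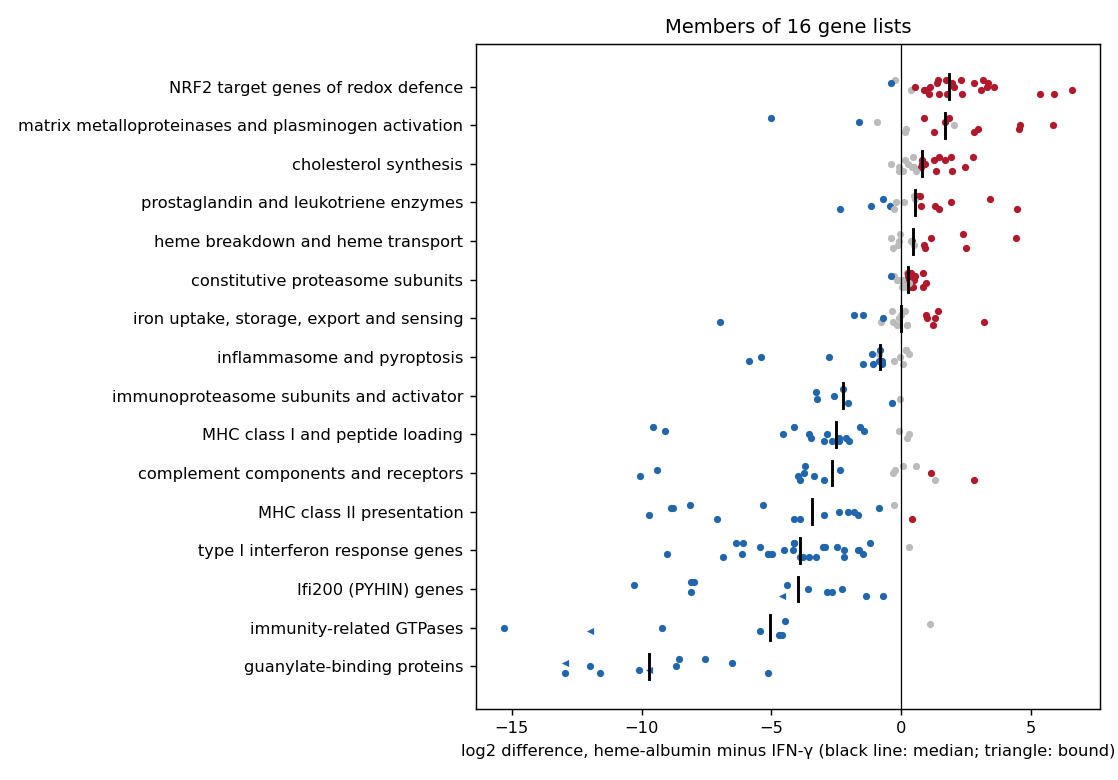
Log2 difference (heme-albumin 400 µM minus IFN-γ) of the tested members of 16 gene lists; a point is a gene, red where called higher with heme-albumin, blue where called higher with IFN-γ and grey otherwise, a triangle is the bound of a gene with no count in 1 group, and the black line is the median; genes with no count in 1 group and under 1 CPM in the other are not drawn. Medians run from 1.86 for NRF2 targets to -9.72 for guanylate-binding proteins.

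RNA of genes of MHC class II presentation was mostly higher with IFN-γ than with heme-albumin. Against untreated cultures 3 genes of this list rose and 3 fell with heme-albumin (median -0.08), while 13 rose and 1 fell with IFN-γ. Of 16 tested members 14 were higher with IFN-γ and 1, the promoter-binding subunit Rfxap, with heme-albumin. The call of Rfxap (0.43 ± 0.15, adjusted p = 0.0365) was lost without IFN-γ replicate 3 (adjusted p = 0.101). It was also lost when only the 6 libraries were fitted (adjusted p = 0.142), and it held in 7 of 15 alternative settings. The median of the list was -3.43. The alpha chain H2-Aa was at 7.68, 3.20 and 4.32 CPM with heme-albumin, 1657, 1833 and 2993 with IFN-γ and 25.4, 19.1 and 12.9 untreated (-8.77 ± 0.46, adjusted p = 6.93e-09) and the beta chain H2-Eb1 at 3.95, 1.87 and 2.50 CPM with heme-albumin, 973, 1020 and 1762 with IFN-γ and 18.4, 12.1 and 8.31 untreated (-8.85 ± 0.46, adjusted p = 5.81e-09). Both fell with heme-albumin relative to untreated (-1.75 ± 0.38, adjusted p = 0.00437 and -2.05 ± 0.40, adjusted p = 0.00216). Cd74, the invariant chain that escorts class II molecules, was at 79.7, 46.9 and 67.0 CPM with heme-albumin, 6516, 8149 and 11110 with IFN-γ and 93.5, 81.2 and 59.7 untreated (-7.08 ± 0.37, adjusted p = 6.61e-09), with no change called between heme-albumin and untreated. The peptide exchange subunits H2-DMa and H2-DMb1 rose with both treatments, by less with heme-albumin (0.75 ± 0.20, adjusted p = 0.0138 and 0.52 ± 0.12, adjusted p = 0.00747), and differed directly by -4.11 ± 0.21 (adjusted p = 5.52e-09) and -2.96 ± 0.13 (adjusted p = 1.26e-09). Cathepsin S, Ctss, which trims the invariant chain, was at 988, 2038 and 1175 against 3481, 5223 and 8584 CPM (-2.05 ± 0.39, adjusted p = 8.61e-04).

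MHC class I and peptide loading followed at smaller differences. Of 18 tested members 15 were higher with IFN-γ and 0 with heme-albumin (median -2.53), and 7 fell with heme-albumin relative to untreated. Tap1, a subunit of the peptide transporter, was at 38.4, 26.9 and 40.4 CPM with heme-albumin, 544, 619 and 660.3 with IFN-γ and 65.2, 88.0 and 73.7 untreated (-4.11 ± 0.19, adjusted p = 2.18e-09). The light chain B2m was at 1303, 1876 and 1502 CPM with heme-albumin, 4984, 6124 and 7644 with IFN-γ and 2355, 3022 and 2447 untreated (-2.00 ± 0.22, adjusted p = 9.07e-06), and the heavy chain H2-K1 at 605, 495 and 596 against 2572, 3552 and 4393 CPM (-2.65 ± 0.20, adjusted p = 2.69e-07). Nlrc5, the class I counterpart of Ciita, was at 37.2, 38.7 and 37.1 CPM with heme-albumin, 288, 272 and 255 with IFN-γ and 38.1, 45.1 and 37.0 untreated, with no difference called between heme-albumin and untreated (-2.84 ± 0.13, adjusted p = 1.97e-09 against IFN-γ). The chaperones Calr, Canx and Pdia3 were not called (0.23, 0.31 and -0.10). Heavy chain genes are near-identical and their counts uncertain.

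Chemokines differed in both directions, where 20.6% of all genes tested were called higher with heme-albumin and 22.3% with IFN-γ. Among 11 tested CXC chemokines 5 were higher with IFN-γ and 4 with heme-albumin, and among 16 CC chemokines and receptors 8 and 3 (5 with IFN-γ when IFN-γ replicate 2 or heme-albumin replicate 2 was left out). Cxcl10, a ligand of CXCR3 that attracts T cells, was at 3.40, 1.10 and 2.20 CPM with heme-albumin, 353, 245 and 438 with IFN-γ and 21.5, 27.7 and 15.4 untreated (-7.29 ± 0.46, adjusted p = 3.62e-08). Its relative Cxcl9 had no count with heme-albumin and was at 95.5, 55.4 and 494 CPM with IFN-γ (at least 2060-fold higher), most of it in replicate 3. Ccl5 was at 0.220, 0 and 0.152 against 23.9, 28.1 and 1286 CPM, with IFN-γ replicate 3 again far above the others (-11.80 ± 2.02, adjusted p = 3.54e-04; -7.52 without it). Ccl12 was low in that library, at 1.76, 0.110 and 2.58 against 117, 116 and 5.49 (-5.59 ± 0.93, adjusted p = 2.89e-04), and its call was lost with the date as a block in the fit of the 6 libraries (adjusted p = 0.0546). On the heme-albumin side stood platelet factor 4, Pf4, at 359.5, 593 and 446 CPM with heme-albumin, 34.2, 34.5 and 11.5 with IFN-γ and 274, 139.8 and 239 untreated (4.17 ± 0.36, adjusted p = 9.55e-07), and the neutrophil attractant Cxcl2, chosen after its values were seen, at 25.2, 95.9 and 43.8 against 9.88, 9.82 and 13.2 (2.35 ± 0.55, adjusted p = 0.00375; 1.63 without heme-albumin replicate 2).

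Of 13 tested inflammatory cytokines 8 were higher with IFN-γ and 1 with heme-albumin. Il27 was at 1.54, 1.54 and 2.20 against 20.4, 25.3 and 24.4 CPM (-3.70 ± 0.31, adjusted p = 5.60e-07), the death ligand Tnfsf10 at 0.988, 0.551 and 0.759 against 37.4, 36.5 and 27.6 (-5.44 ± 0.38, adjusted p = 1.05e-07), and Il15, which sustains NK cells, at 20.6, 20.3 and 20.1 against 38.5, 51.4 and 36.3 (-1.04 ± 0.13, adjusted p = 2.00e-05). Tnf, the central inflammatory cytokine, was at 105, 98.2 and 129.6 CPM with heme-albumin, 194, 211 and 151 with IFN-γ and 145, 125 and 134 untreated (-0.72 ± 0.12, adjusted p = 2.67e-04). No difference was called between heme-albumin and untreated, and the direct call was lost with the date as a block when only the 6 libraries were fitted (adjusted p = 0.0518). Il18bp, which neutralises IL-18, was at 5.93, 6.17 and 8.65 CPM with heme-albumin, 336, 527 and 708 with IFN-γ and 7.53, 6.69 and 9.49 untreated (-6.25 ± 0.33, adjusted p = 7.46e-09). Annexin A1, an anti-inflammatory mediator, was on the other side, at 981, 1423 and 1176 CPM with heme-albumin, 248, 305 and 206 with IFN-γ and 934, 1062 and 917 untreated (2.26 ± 0.18, adjusted p = 3.58e-07), having fallen with IFN-γ. For Il10 the groups overlapped at 7.03, 2.10 and 5.76 and 11.2, 12.8 and 2.81 CPM and no difference was called (-0.82 ± 0.48, adjusted p = 0.188), although it was without IFN-γ replicate 3 (-1.21, adjusted p = 0.0214).

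Both enzymes that compete for arginine were higher with IFN-γ. Nos2, the inducible nitric oxide synthase, had no count in the heme-albumin libraries and was at 146, 78.4 and 487 CPM with IFN-γ (at least 2290-fold higher), with replicate 3 the highest. Arg1, arginase 1, usually taken as a mark of the response to IL-4, was at 2.58, 0.852 and 0.831 CPM untreated, 143, 83.3 and 31.6 with IFN-γ and 0.110, 0 and 0 with heme-albumin, where it had 1 count (2700-fold, counting interval 484 to 107000, higher with IFN-γ). All 3 IFN-γ libraries were above all others for this gene. The arginine importer Slc7a2 was at 1.32, 2.10 and 1.75 against 17.7, 11.5 and 13.1 (-3.01 ± 0.36, adjusted p = 1.91e-05), and in the whole list 6 of 11 were higher with IFN-γ and 1, the polyamine enzyme Odc1, with heme-albumin (0.65). Mrc1, the mannose receptor used as an M2 marker, fell from 2447, 1793 and 2173 CPM untreated to 237, 59.9 and 308 with heme-albumin and 164, 194 and 39.4 with IFN-γ. The groups overlapped, and the direct difference of 0.64 ± 0.57 (adjusted p = 0.392) was not called.

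Many inflammasome genes rose with IFN-γ and some with heme-albumin. Against untreated cultures 7 of 17 tested members rose with heme-albumin and 15 with IFN-γ, none fell, and in the direct comparison 10 were higher with IFN-γ and 0 with heme-albumin (median -0.81). Casp1, the caspase that matures IL-1β, was at 121, 133 and 134 CPM with heme-albumin, 378, 363 and 333 with IFN-γ and 100.3, 110.5 and 93.2 untreated (-1.46 ± 0.10, adjusted p = 9.04e-08) and the sensor Nlrp1b at 26.8, 21.9 and 24.4 CPM with heme-albumin, 46.5, 40.7 and 41.8 with IFN-γ and 13.1, 14.9 and 16.6 untreated (-0.81 ± 0.11, adjusted p = 4.57e-05); in both genes the 3 groups did not overlap. Casp4, the sensor of cytosolic lipopolysaccharide, was at 12.7, 20.3 and 17.8 against 111, 114 and 130 CPM (-2.80 ± 0.19, adjusted p = 8.28e-08). Il1b was low throughout, at 0.110, 0 and 0.228 against 1.98, 2.44 and 11.9 (-5.40 ± 0.92, adjusted p = 3.13e-04; -3.99 without IFN-γ replicate 3).

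Complement genes had a median of -2.66, and of -1.67 without IFN-γ replicate 3, with 9 of 16 higher with IFN-γ and 2 with heme-albumin. Factor B, Cfb, was at 0.549, 0.331 and 0.455 CPM with heme-albumin, 93.1, 116 and 1150 with IFN-γ and 2.37, 2.62 and 2.02 untreated (-10.05 ± 1.20, adjusted p = 1.63e-05), with IFN-γ replicate 3 far above the other 2 (-7.78 without it). C1ra was at 7.25, 10.6 and 10.3 against 33.0, 32.2 and 78.3 CPM (-2.37 ± 0.38, adjusted p = 2.14e-04; -1.72 without IFN-γ replicate 3). The lysosomal protease Ctsc was at 223, 137 and 230.1 CPM with heme-albumin, 4091, 3557 and 3168 with IFN-γ and 519.6, 429.9 and 485 untreated (-4.19 ± 0.21, adjusted p = 5.52e-09), and Ctsl, cathepsin L, went the other way, at 3355, 3406 and 3470 CPM with heme-albumin, 1199, 1204 and 942 with IFN-γ and 1837, 1731 and 1727 untreated (1.63 ± 0.15, adjusted p = 1.25e-06). Among lysosomal genes as a whole 7 of 25 were higher with heme-albumin and 8 with IFN-γ, beside 20.6% and 22.3% of all genes tested. Serpina3g, a protease inhibitor from a cluster of near-identical copies, was at 0.329, 0 and 0.0759 against 971, 902 and 1241 CPM (-12.91 ± 0.49, adjusted p = 3.07e-09).

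Of 15 costimulatory and checkpoint ligands 7 were higher with IFN-γ and 2 with heme-albumin, beside 22.3% and 20.6% of all genes tested. The count with heme-albumin was 1 when only the 6 libraries were fitted and 4 with upper-quartile scaling. Cd86, the ligand of CD28, was at 10.1, 15 and 11.4 CPM with heme-albumin, 152, 158 and 135 with IFN-γ and 13.4, 7.47 and 12.1 untreated (-3.59 ± 0.22, adjusted p = 2.59e-08). The checkpoint ligand Cd274, known as PD-L1, rose with both treatments, at 38.9, 104 and 53.4 CPM with heme-albumin, 936, 1032 and 1989 with IFN-γ and 25.6, 19.4 and 22.4 untreated, and far more with IFN-γ (-4.34 ± 0.49, adjusted p = 1.01e-05). The Fc receptor Fcgr4 was at 50.2, 74.4 and 56.0 against 1101, 1163 and 924 CPM (-4.12 ± 0.23, adjusted p = 1.32e-08), and the high-affinity receptor Fcgr1 at 74.1, 41.6 and 72.6 CPM with heme-albumin, 659, 828 and 630.2 with IFN-γ and 135, 206 and 123 untreated (-3.49 ± 0.26, adjusted p = 2.37e-07), with heme-albumin below every untreated library. Of 17 Toll-like receptors and adaptors 10 were higher with IFN-γ and 1 with heme-albumin, among them Tlr9, the sensor of unmethylated DNA, at 8.45, 3.42 and 6.98 against 91.0, 105 and 90.7 (-3.92 ± 0.27, adjusted p = 7.65e-08). Transglutaminase 2, Tgm2, from the list of IL-4 response genes, was at 23.2, 31.0 and 26.1 CPM with heme-albumin, 2409, 2062 and 1911 with IFN-γ and 59.6, 62.7 and 61.0 untreated (-6.29 ± 0.34, adjusted p = 7.46e-09).

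**Figure D4:**
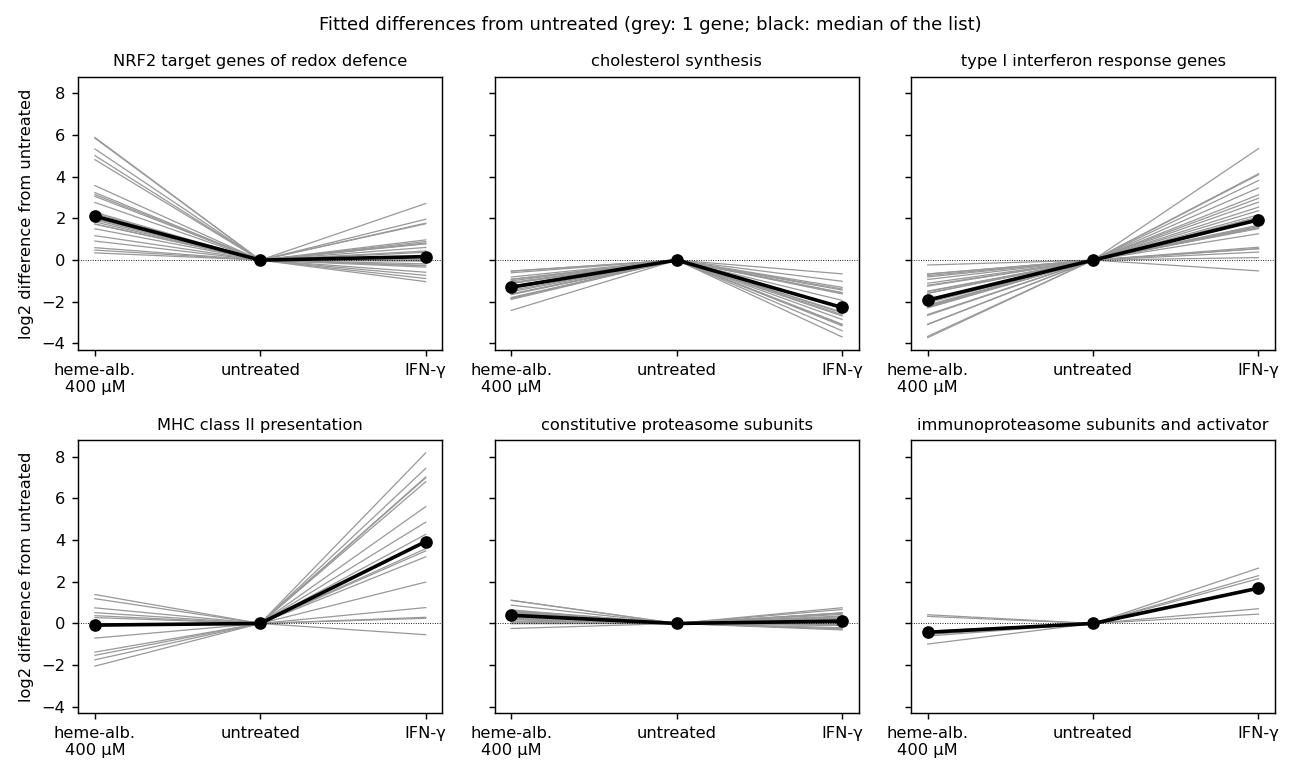
Fitted log2 difference from untreated cultures of the tested members of 6 gene lists with heme-albumin 400 µM (left) and with IFN-γ (right), with untreated at 0 in the middle; a grey line is a gene and the black line is the median of the list, and both sides share the untreated libraries. NRF2 targets rise on the left, cholesterol synthesis falls on both sides, and type I interferon response genes fall on the left and rise on the right.

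As a background of genes that were alike in both groups, the 95% interval of the difference lay within 1.5-fold on both sides for 3918 genes, 432 of them called. Among those with the highest CPM were Eef1a1, a translation factor, at 4834, 5812 and 5059 against 6385, 6181 and 5127 CPM (-0.15 ± 0.12, adjusted p = 0.344), Gapdh (-0.03 ± 0.16, adjusted p = 0.913) and Itm2b, a membrane protein that rose with both treatments, at 2519, 2930 and 3115 CPM with heme-albumin, 2490, 2822 and 3768 with IFN-γ and 1530, 1672 and 1823 untreated (-0.09 ± 0.19, adjusted p = 0.725).

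Differences within a date varied from date to date in some of the named genes. Within the dates numbered 1, 2 and 3, Hmox1 differed by 4.39, 5.13 and 3.92 and Irf1 by -5.30, -5.81 and -6.04 on the log2 scale. Mrc1 differed by 0.56, -1.57 and 2.84, with a change of sign, and Mcm5, a helicase subunit of DNA replication, by 0.70, 0.10 and 3.11. For Cfb the values were -7.07, -7.88 and -11.07 and for Slc7a11 3.24, 7.40 and 1.14. What the dates mark is not given in the sources used here. When both libraries that stood apart were left out together, 2421 genes were called higher with heme-albumin and 2329 with IFN-γ.

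**Figure D5:**
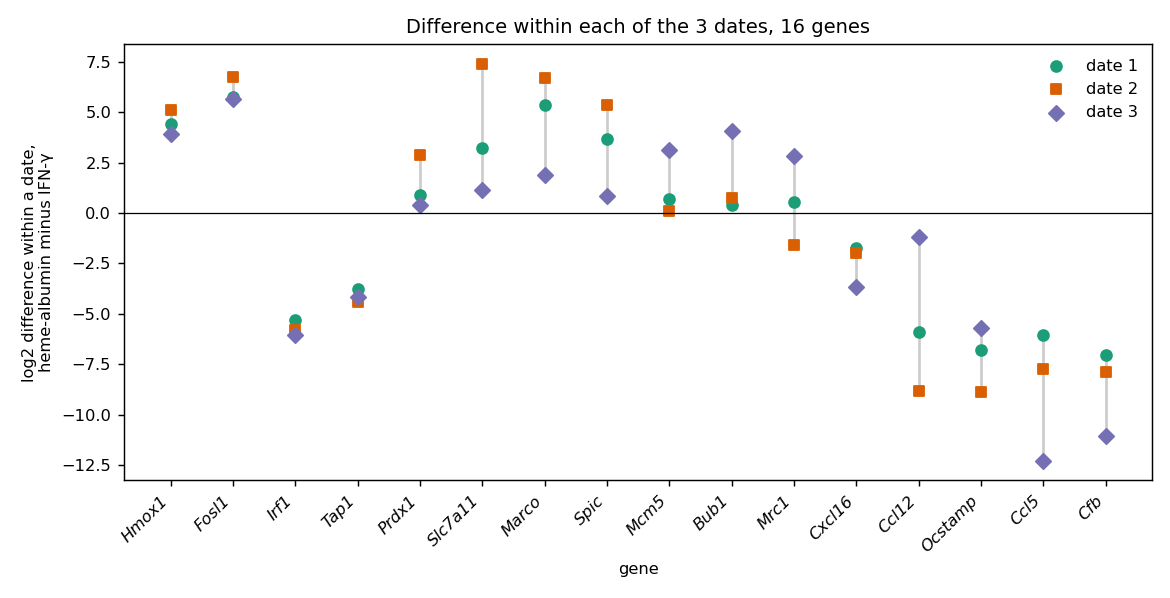
Log2 difference (heme-albumin 400 µM minus IFN-γ) within each of the 3 dates for 16 genes; a symbol is a date and the grey line spans the 3. Hmox1, Fosl1, Irf1 and Tap1 differ less between dates than Slc7a11 or Ccl12 do, Slc7a11 is highest on date 2, and Ccl5 and Cfb are lowest on date 3, and the value of Ccl5 on date 2 depends on edgeR's prior count because that heme-albumin library has no count.

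Macrophage markers were present in every library. Adgre1 was at 1067, 912 and 1228 CPM with heme-albumin and 986, 955 and 2018 with IFN-γ, and Cd68 at 1207, 1169 and 1253 and 883, 1296 and 1037, and neither was called (-0.34 and 0.18). Of the 16 core macrophage genes, however, 2 were called higher with heme-albumin and 5 with IFN-γ (median -0.39), against 20.6% and 22.3% of all genes tested. The count with IFN-γ was 8 without IFN-γ replicate 1. The 16 genes summed to 45100 to 53400 CPM with heme-albumin, 16700 to 27100 with IFN-γ and 40800 to 46000 untreated. Lysozyme, Lyz2, the largest part of the sum with heme-albumin and untreated, was at 36340, 38460 and 44490 CPM with heme-albumin, 7565, 6905 and 15240 with IFN-γ and 30210, 34350 and 30630 untreated (1.98 ± 0.32, adjusted p = 2.26e-04). Of the 13 genes of T and NK cells 8 had no count with heme-albumin and 8 had none with IFN-γ, among them Cd3e, Cd3d and Trac in both groups. Of the 8 B cell genes 5 had no count with heme-albumin and 3 with IFN-γ, with Ms4a1 and Pax5 at 0 in both. Of the 10 genes of red cell precursors 6 and 8 had none, with Hba-a1 and Alas2 at 0 in both. The other members of these lists were detected. The 13 genes of T and NK cells summed to 111 to 409 CPM with heme-albumin, 68.3 to 185 with IFN-γ and 53.3 to 77.0 untreated. The 8 B cell genes summed, in the same order, to 10.6 to 22.3, 3.41 to 48.7 and 234 to 255. The 12 neutrophil genes summed to 849 to 1310 CPM with heme-albumin and 31.6 to 100 with IFN-γ. With heme-albumin nearly all of the sum was Mmp8. S100a8 was at 16.7, 47.7 and 13.1 CPM with heme-albumin against 10.3, 1.56 and 32.1 with IFN-γ and was not called. The 8 megakaryocyte genes summed to 365 to 630 against 13.0 to 36.7, mostly Pf4. The 12 stromal and endothelial genes summed to 218 to 268 against 13.5 to 27.9, mostly Esam with heme-albumin. The 10 dendritic cell genes summed to 3.49 to 3.95 against 27.4 to 65.8, led by Clec9a, at 41.3, 50.6 and 23.1 CPM with IFN-γ and 2 counts in all with heme-albumin (622-fold, counting interval 172 to 5140, higher with IFN-γ). The part of other cell types in these sums was not tested.

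Counts are less certain for genes with near-identical copies, which here are the Gbp, Irg and Tgtp, H2, Ifi200, Serpina3, Ccl and metallothionein families and the ferritins. Exons of the annotation overlap another gene in Abcb6, Adam8, Alox5ap, Cd274, Cd74, Cfb, Ciita, Clec9a, Cp, Ctsl, Cxcl10, Ddit3, Dhx58, Eef1a1, Fdft1, Fosl1, Ftl1, Gapdh, Gbp2, Gclm, H2-DMa, Hmox2, Igtp, Il18bp, Il1b, Il27, Irf1, Irf7, Irgc1, Keap1, Mafk, Me1, Mmp12, Nlrc5, Pdia3, Psmb8, Psmb9, Psmd1, Psme1, Slc25a37, Slc48a1, Slc7a2, Spp1, Stat3, Tap1, Tgm2, Tgtp1, Tyk2, Usp18 and Vcam1, and since the strand setting of the authors' counting is not given in the sources used here, reads of the partners may be included in these counts.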

How the data were processed

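RNA of macrophage cultures was sequenced as stranded libraries of total RNA, per the labels' protocols. The authors deposited 1 table of counts per gene, whole numbers with no normalization, for 15 libraries in 5 groups of 3. The submitters' processing notes list STAR 2.7.0e, SAMtools 1.9, featureCounts and GRCm38.p5, while the strand setting and the annotation used for counting are not given in the sources used here. Of the 25700 gene identifiers 25587 were matched in GENCODE M21 for symbols and GRCm38 positions, and 113 were not.

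The counts were analysed in R 4.3.3 with edgeR 4.0.16. After filterByExpr and scaling by TMM factors, heme-albumin 400 µM was compared with IFN-γ by the quasi-likelihood test in 1 fit of group means over all 15 libraries, without a block. A gene was called at a Benjamini-Hochberg adjusted p below 0.05. Steps were tested on simulated data. CPM in the text are scaled by the library total. Differences by date use edgeR's log2 CPM with its default prior count. A fold against a group with no count uses a floor of 3 counts over the group, and against 1 to 3 counts the ratio is given with its 95% interval. These bounds and intervals cover counting error only. DESeq2 1.42.0, other scalings and filters, fits of the 6 libraries, the block and fits without each library were alternatives.

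Column names carry 1 date per replicate number, shared by all groups, so the numbers were taken to pair the libraries. The deviations of same-number libraries from their group means correlated with a median of 0.144 over 30 pairs (-0.168 to 0.474), against -0.0688 over 60 other pairs. For the heme-albumin and IFN-γ libraries the 3 values were 0.200, -0.168 and -0.103.

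The gene lists and the comparison were chosen with earlier results of these data known. Named genes are, in each direction, the 15 largest called differences with a mean of at least 1 CPM, no overlap and a name other than that of a predicted gene, the 8 largest called differences of mean CPM, up to 4 members of smallest p of each list, a fixed set of markers, and the 8 genes of highest level among those alike in both groups; the text gives those that serve a comparison. Adgre1, Blvra, Blvrb, Calr, Canx, Cd68, Cp, Cxcl2, Gsta3, Hmox2, Irgc1, Mmp14, Odc1, Pdia3, Psmb2, Rfxap and Txn1 fall outside this rule and were chosen after their values were seen. Figures were drawn with matplotlib 3.10.9. Some genes are not reported here.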

Additional observations from a re-analysis of the deposited data

How the results depend on the processing

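With all 15 libraries in the fit, the counts of 2448 genes higher with heme-albumin and 2649 higher with IFN-γ became 2572 and 2686 with DESeq2, 2483 and 2588 with DESeq2 size factors, 3176 and 2006 with upper-quartile factors, 2318 and 2573 with no filter, 2160 and 2375 with at least 5 CPM in 3 libraries, and 2590 and 2792 with the replicate block. With only the 2 groups compared they were 1268 and 1473, and with the replicate block in that fit 959 and 1079. Leaving out 1 library at a time gave 2032 to 2716 and 2224 to 2831. No gene was called with opposite signs in the reported fit and in any of the settings above that keep all libraries. Against untreated cultures the ranges with 1 library left out were 1245 to 1781 higher and 902 to 1232 lower with heme-albumin, and 2232 to 3074 higher and 1792 to 2526 lower with IFN-γ. Among the named genes, Spic, Marco and Mmp9 gained a call with the replicate block over all libraries and no named gene lost one. With only the 2 groups compared, 6 libraries estimate the spread instead of 15, and the cause of the lower counts was not tested further. The share of promoters with the interferon-stimulated core among genes higher with IFN-γ was 18.9% at 2-fold instead of 28.4% at 4-fold, and 843 instead of 3918 genes were alike with the narrower margin tried. The depth, 9069999 to 22494832 counts, limits genes of a few counts, whose folds are given as bounds or with counting intervals.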

Other observations

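Genes of DNA replication and mitosis were not separated firmly by the direct comparison. Of 25 tested members 2 were called higher with heme-albumin and 0 with IFN-γ (median 0.57), while 19 fell with IFN-γ and 1 with heme-albumin relative to untreated cultures. The number called higher with heme-albumin was 18 without IFN-γ replicate 1, 5 without both libraries that stood apart, and 0 when only the 6 libraries were fitted. Pcna, the sliding clamp of DNA polymerase, was at 467, 454 and 433 CPM with heme-albumin, 373, 352 and 175 with IFN-γ and 422, 425 and 356 untreated (0.62 ± 0.18, adjusted p = 0.0125), a call lost when only the 6 libraries were fitted (adjusted p = 0.114). Bub1, a kinase of the spindle checkpoint, was at 66.5, 29.7 and 52.9 CPM with heme-albumin, 51.1, 18.9 and 2.74 with IFN-γ and 86.2, 83.2 and 72.3 untreated, lowest in IFN-γ replicate 3, and was not called (1.09 ± 0.58, adjusted p = 0.146). It was called without IFN-γ replicate 1 (adjusted p = 0.00370).

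The hexokinases and the regulator of glycolytic flux were higher with IFN-γ. Pfkfb3, which makes the activator of phosphofructokinase, was at 28.1, 41.6 and 35.4 CPM with heme-albumin, 253, 257 and 331 with IFN-γ and 36.5, 32.7 and 43.9 untreated (-3.00 ± 0.20, adjusted p = 7.66e-08), and Hk3 at 354, 320 and 337 CPM with heme-albumin, 1467, 2005 and 1406 with IFN-γ and 309, 331 and 344 untreated (-2.26 ± 0.12, adjusted p = 6.22e-09). For both genes every IFN-γ library was above every other one, and no difference was called between heme-albumin and untreated. In the whole glycolysis list 7 of 18 members were higher with IFN-γ and 2 with heme-albumin, beside 22.3% and 20.6% of all genes tested. The count with heme-albumin was 0 when only the 6 libraries were fitted and 4 without IFN-γ replicate 1 or without heme-albumin replicate 2. The median of the list was -0.18, and 0.06 without heme-albumin replicate 2.

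Stress and p53 genes differed one by one. Ddit3, the stress factor CHOP, was at 8.56, 13.6 and 7.66 CPM with heme-albumin, 51.7, 89.0 and 59.0 with IFN-γ and 19.4, 15.8 and 17.7 untreated (-2.74 ± 0.26, adjusted p = 1.99e-06), and of 23 stress response genes 4 were called higher with IFN-γ and 2 with heme-albumin. The count with IFN-γ was 2 without IFN-γ replicate 1 or 2 and 9 without both libraries that stood apart. Of 16 tested p53 targets 3 were called higher with IFN-γ and 1 with heme-albumin. Among all genes tested the shares were 22.3% with IFN-γ and 20.6% with heme-albumin, so neither list stood out by its calls. The p53 target Bbc3, a promoter of cell death, was at 5.49, 3.86 and 3.64 CPM with heme-albumin against 10.7, 20.9 and 17.3 (-1.93 ± 0.23, adjusted p = 2.01e-05), and Tnfrsf10b, a death receptor, at 25.5, 23 and 21.6 against 12.0, 9.91 and 3.72 (1.48 ± 0.27, adjusted p = 6.94e-04), the other way. Among phagocytic receptors Axl, which binds apoptotic cells, was at 22.2, 15.2 and 19.6 CPM with heme-albumin, 169, 182 and 135 with IFN-γ and 19.9, 22.6 and 20.4 untreated (-3.08 ± 0.21, adjusted p = 7.13e-08), and Colec12, a scavenger receptor, at 43.0, 19.4 and 33.9 CPM with heme-albumin, 5.99, 4.27 and 4.82 with IFN-γ and 31.2, 28.1 and 28.5 untreated (2.68 ± 0.26, adjusted p = 2.25e-06). The adhesion protein Cdh1, known as a response gene of IL-4, was at 3.51, 3.31 and 3.49 CPM with heme-albumin, 0.359, 0.133 and 0.122 with IFN-γ and 0.143, 0.262 and 0.119 untreated (4.08 ± 0.32, adjusted p = 3.15e-07). Adjusted p-values are from edgeR's quasi-likelihood test.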
